A study of Danio rerio with 6 samples.

Results

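The genes of 5 transcription factors that set the fate of photoreceptors, *crx* (ENSDARG00000011989), *neurod1* (ENSDARG00000019566), *tbx2b* (ENSDARG00000006120), *thrb* (ENSDARG00000021163) and *six7* (ENSDARG00000070107), were followed in the retina of *pde6c* zebrafish larvae and WT larvae. They were chosen by their Ensembl identifiers for their known roles, with earlier results of these data known, and are 5 of the 25190 genes in the count table. All 5 had fragments in every sample and entered the test over 17242 genes. The RNA-Seq compared 3 samples of homozygous *pde6c* w59 mutants (PR1, PR2 and PR3) with 3 WT samples (WR1, WR2 and WR3), all at 5 dpf. Each sample pooled 3 retinas from 3 dark-adapted larvae. *pde6c* encodes a subunit of the cone phosphodiesterase, the enzyme that lowers cGMP when a cone absorbs light, and larvae without it lose cones. The mutants belong to 1 line and were bred from carriers, and the WT larvae from other pairs, WT fish of the same families, so an effect of the parents and of the mutation cannot be told apart. RNA was amplified before sequencing.

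Photoreceptor precursors leave the cell cycle and are then directed to rod or cone fates by a small set of transcription factors. *crx* encodes an OTX-type homeodomain protein that turns on photoreceptor genes in rods and cones, and *neurod1* a basic helix-loop-helix protein that acts in photoreceptor precursors and in photoreceptor survival. The other genes act on subtypes of cones: *tbx2b*, a T-box factor, is needed for UV cones, *thrb*, a thyroid hormone receptor, for red cones, and *six7*, a homeodomain factor, for the green opsins and for much of blue opsin expression in zebrafish.

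Total counts per sample lay between 18757605 and 22510222, and a level of 3 counts was 0.129 to 0.169 CPM (counts relative to the library size after TMM normalization), far below the level of any of the 5 factors. This limit covers counting error only. The most genes were detected in PR1 (20060) and WR1 (19887), against 19112 to 19541 in the other 4 samples. The *pde6c* gene itself had no counts in any sample. Its span overlaps that of 1 other gene, and fragments lying on both were not counted. In the table of FPKM (fragments scaled by transcript length and by library size) it had 60.1, 140 and 84.8 in the *pde6c* samples, against 445, 655 and 520 in the WT samples, lower in every *pde6c* sample. Markers of cones, rods, bipolar, amacrine, ganglion and Müller cells were present in both genotypes, though 3 of the matched cone markers and 2 of the rod markers had no counts. Summed pigment epithelium markers were 12.95 to 27.12 CPM, summed lens markers at most 1.22 CPM and summed blood markers at most 0.840 CPM.

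None of the 5 factors passed the threshold of 0.1 for the Benjamini-Hochberg adjusted *P*-value of the quasi-likelihood test in edgeR, beside 3.69% of all tested genes. Lower means in *pde6c* were found for *crx*, *tbx2b*, *thrb* and *six7*, at 67.4% to 78.0% of WT, and *neurod1* was at 106% of WT. Of the 5, *tbx2b* and *six7* (2 genes) had an unadjusted *P*-value under 0.05, beside 12% of all genes. The same 2 of 5 had CPM that did not overlap between genotypes, beside 16.9% of all genes in either direction and 8.75% in the lower direction. With DESeq2, 1 of the 5 was called (*six7*), beside 5.88%, and with limma on FPKM none, beside 1.3%. With the replicate number as a block in edgeR, 1 of the 5 was called (*six7*), beside 5.71%. The median log2 fold change of the 5 was -0.37 and 4 were below 0, beside a median of 0.00 over all tested genes and of -0.05 over the 2268 genes at least as abundant as the lowest of the 5. These are bulk samples, in which fewer cells of a type and less RNA per cell cannot be told apart.

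**Figure D1:**
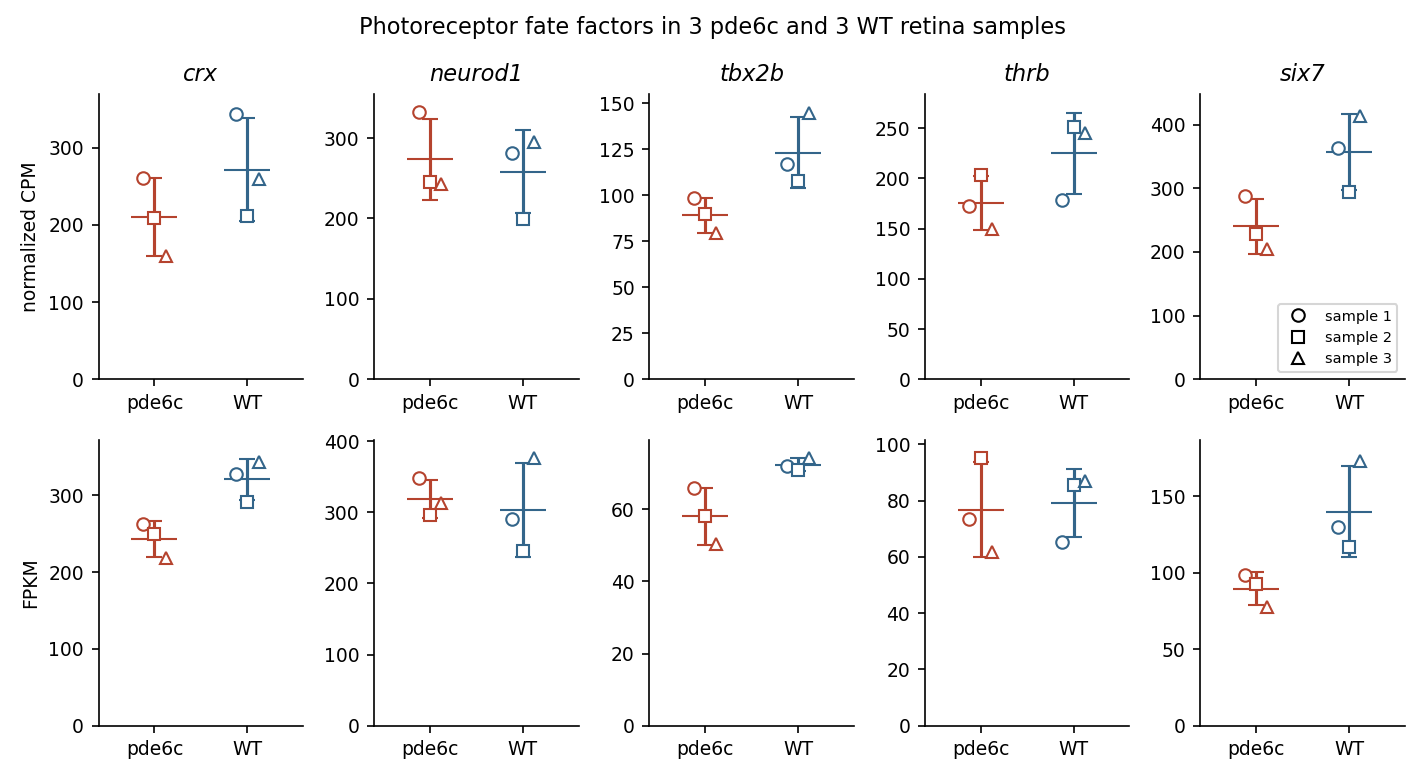
CPM (upper row) and FPKM (lower row) of each factor in the *pde6c* samples (left in each panel) and WT samples (right); symbols are samples, horizontal lines the means and bars the SD over 3 samples. The genotypes do not overlap for *tbx2b* and *six7* in either unit, and for *crx* in FPKM only.

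*crx* lies on the forward strand at chr5:36332565-36336290 (GRCz10), a span of 3726 bases. Its level was 261, 209 and 160 CPM in PR1, PR2 and PR3, against 343, 211 and 260 CPM in WR1, WR2 and WR3. The number 1 sample was the highest of each genotype, PR3 was the lowest of all, and the genotypes overlapped. The means were 210 ± 50.3 CPM in *pde6c* and 271 ± 66.9 CPM in WT (SD, n = 3 each), with a log2 fold change of -0.37 (SE 0.20, 95% interval -0.79 to 0.05, edgeR adjusted *P* = 0.511). Samples of 1 genotype spanned 1.63-fold in both *pde6c* and WT, the widest spread of the 5 factors in CPM.

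In FPKM the same gene was tighter within a genotype. *crx* had 263, 249 and 218 FPKM in the *pde6c* samples, against 328, 291 and 344 FPKM in the WT samples, so every *pde6c* sample was below every WT sample. The means were 243 ± 23.2 FPKM in *pde6c* and 321 ± 27.1 FPKM in WT (SD, n = 3 each). A two-sided exact permutation test gave *P* = 0.1, the smallest that 3 samples against 3 allow (adjusted *P* = 0.167 over the 5 factors).

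*neurod1* lies on the reverse strand at chr9:44489979-44493329, a span of 3351 bases. It had 332, 246 and 243 CPM in the *pde6c* samples, against 281, 199 and 295 CPM in the WT samples. PR1 was the highest of the 6 and WR2 the lowest, and the genotypes overlapped in part. The log2 fold change was 0.08 (SE 0.18, 95% interval -0.29 to 0.46, edgeR adjusted *P* = 0.923), which puts *pde6c* between 81.5% and 138% of WT. Its sign was not stable, with -0.067 without PR1 and -0.0745 without WR2. FPKM gave the same picture, with means of 319 ± 26.7 in *pde6c* and 304 ± 66.1 in WT (SD, n = 3 each; exact permutation *P* = 0.8).

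*tbx2b*, the UV cone factor, lies on the forward strand at chr15:27431518-27438464. It had 98.5, 89.6 and 79.4 CPM in the *pde6c* samples, against 117, 108 and 145 CPM in the WT samples, and no *pde6c* sample reached the lowest WT sample. The means were 89.1 ± 9.56 CPM in *pde6c* and 123 ± 19.1 CPM in WT (SD, n = 3 each). The log2 fold change was -0.47 (SE 0.17, 95% interval -0.83 to -0.10) and the edgeR adjusted *P* was 0.237. In FPKM the WT samples were close to each other at 71.9, 70.9 and 74.3, and the *pde6c* samples lay below them at 65.9, 58.0 and 50.3 (exact permutation *P* = 0.1).

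*thrb*, the red cone factor, spans 143520 bases on the reverse strand at chr19:18056106-18199625, the longest of the 5 genes. It had 173, 203 and 150 CPM in the *pde6c* samples, against 178, 251 and 245 CPM in the WT samples. WR1 lay among the *pde6c* samples, so the genotypes overlapped. The log2 fold change was -0.36 (SE 0.17, 95% interval -0.72 to 0.01, edgeR adjusted *P* = 0.433). In FPKM the difference was smaller: 73.4, 95 and 61.8 in the *pde6c* samples, against 65.3, 85.5 and 86.9 in the WT samples, with PR2 the highest of all 6 (exact permutation *P* = 0.9). The means were 76.8 ± 16.9 FPKM in *pde6c* and 79.2 ± 12.1 FPKM in WT (SD, n = 3 each), and limma on log2(FPKM + 1) gave -0.06. The counts cover the whole span with its introns and the FPKM only transcripts. Neither table separates the isoforms of this receptor, of which only one is the cone form.

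*six7* lies on the reverse strand at chr7:7168323-7186932, a span of 18610 bases, and showed the largest difference of the 5. It had 288, 228 and 205 CPM in the *pde6c* samples, against 363, 294 and 413 CPM in the WT samples. Every *pde6c* sample was below every WT sample, with PR1 and WR2 nearly equal. The means were 240 ± 43.0 CPM in *pde6c* and 357 ± 59.8 CPM in WT (SD, n = 3 each), so that *pde6c* was at 67.4% of WT (95% interval 52.5% to 86.4%). The log2 fold change was -0.57 (SE 0.17, 95% interval -0.93 to -0.21, edgeR adjusted *P* = 0.105), just short of the threshold. DESeq2 placed it on the other side, with an adjusted *P* of 0.0517, and so did edgeR without PR1 (0.0597) or without WR2 (0.0669). Without PR2, PR3, WR1 or WR3 it stayed short of the threshold (edgeR adjusted *P* of 0.202 to 0.418), as it did with limma on FPKM (0.319). In FPKM it had 98.3, 93.0 and 77.6 in the *pde6c* samples, against 130, 117 and 173 in the WT samples (exact permutation *P* = 0.1).

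The lowest bound of the 95% intervals was 52.5% of WT, that of *six7*, and the highest was 138%, that of *neurod1*. For 3 of the 5 factors, *crx*, *tbx2b* and *six7*, FPKM did not overlap between genotypes, beside 15.8% of the 15782 genes kept in the FPKM table by a filter on low values and 8.47% in the lower direction.

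FPKM allows the 5 to be ranked within a sample. *neurod1* and *crx* were the most abundant in every sample, with more FPKM than 98.5% and 98.3% of these genes on average. *six7* (95.7%), *thrb* (93.3%) and *tbx2b* (91.7%) followed. The order of *crx* and *neurod1* differed between samples. The FPKM ratio of *crx* to *neurod1* was 0.755, 0.841 and 0.695 in PR1, PR2 and PR3, against 1.13, 1.18 and 0.915 in WR1, WR2 and WR3, so the genotypes did not overlap, but WR3 had *neurod1* first as all *pde6c* samples did. The FPKM ratio of *neurod1* to *six7* was 3.54, 3.18 and 4.04 in the *pde6c* samples, against 2.23, 2.10 and 2.17 in the WT samples, again without overlap. Both ratios were picked after all 10 pairs were seen and were not tested. *thrb* and *tbx2b* exchanged places in WR1 only, and *thrb* passed *six7* in PR2 only, so *thrb* did not separate from either neighbour in every sample, whereas *six7* was above *tbx2b* in all 6.

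The 5 factors also differed in how they varied from sample to sample. After each gene was centred over the 6 samples, *tbx2b* and *six7* had the most similar CPM, with a root mean square difference of 0.101 on the log2 scale, and *neurod1* and *thrb* the least similar, at 0.41. By the same measure over 13946 genes, the closest named genes were serbp1b (0.0604) and MPHOSPH8 (0.0722) for *crx*, si:dkey-211i20.5 (0.052) and PLCH2 (0.0538) for *neurod1*, and HSPA12A (0.0671) and RIC8A (0.0733) for *tbx2b*. For *thrb* they were ppap2d (0.0558) and LRP1B (0.0616), and for *six7* HSPA13 (0.0802) and foxd1 (0.0907). None of these 10 genes passed the threshold. They were picked for values close to those of factors that did not pass, so this is no separate result.

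Cone opsins known to depend on *tbx2b*, *thrb* and *six7* were read beside them, and of 8 opsin genes matched 6 could be tested. Of these, 4 fell and 2 rose past the threshold in edgeR, beside 2.29% of all tested genes that fell and 1.4% that rose. Red and green opsin genes were among both. The green opsin genes *opn1mw2*, taken up below, and *opn1mw4* were not tested. The UV opsin *opn1sw1*, which depends on *tbx2b*, had 1492, 1745 and 1516 CPM in the *pde6c* samples, against 7241, 8002 and 6272 CPM in the WT samples (log2 fold change -2.18, SE 0.14, edgeR adjusted *P* = 2.03e-07). Of the red opsins, which depend on *thrb*, *opn1lw2* had 1964, 3261 and 2281 CPM in the *pde6c* samples, against 3969, 5652 and 4388 CPM in the WT samples (-0.90, SE 0.18, edgeR adjusted *P* = 0.00817). No *pde6c* sample reached a WT sample for either gene. The other red opsin, *opn1lw1*, rose at a low level, with 20.6, 37.0 and 13.2 CPM in the *pde6c* samples, against 5.52, 8.05 and 8.86 CPM in the WT samples (1.66, SE 0.38, edgeR adjusted *P* = 0.0248).

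Of the opsins that depend on *six7*, the green *opn1mw1* had 998, 1332 and 1009 CPM in the *pde6c* samples, against 4106, 3680 and 4056 CPM in the WT samples (-1.83, SE 0.14, edgeR adjusted *P* = 1.32e-06). The blue *opn1sw2* had 1451, 1635 and 1384 CPM in the *pde6c* samples, against 2801, 2569 and 2387 CPM in the WT samples (-0.80, SE 0.13, edgeR adjusted *P* = 0.00157). The genes of green opsin are near copies in tandem. The span of *opn1mw1* overlaps that of *opn1mw2*, and fragments lying on both were not counted. *opn1mw2* had no counts but averaged 1530 FPKM in *pde6c* and 90.0 FPKM in WT. In the same unit *opn1mw1* averaged 1976 in *pde6c* and 7050 in WT. The division of fragments among them is uncertain, and the fall of *opn1mw1* is not that of green opsin as a whole. The span of *opn1sw2* also overlaps 1 other gene. Another green opsin, *opn1mw3*, rose (edgeR adjusted *P* = 0.00689) at 1.29, 5.25 and 1.85 CPM in the *pde6c* samples, against at most 0.0884 CPM in a WT sample, which is under the level of 3 counts.

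**Figure D2:**
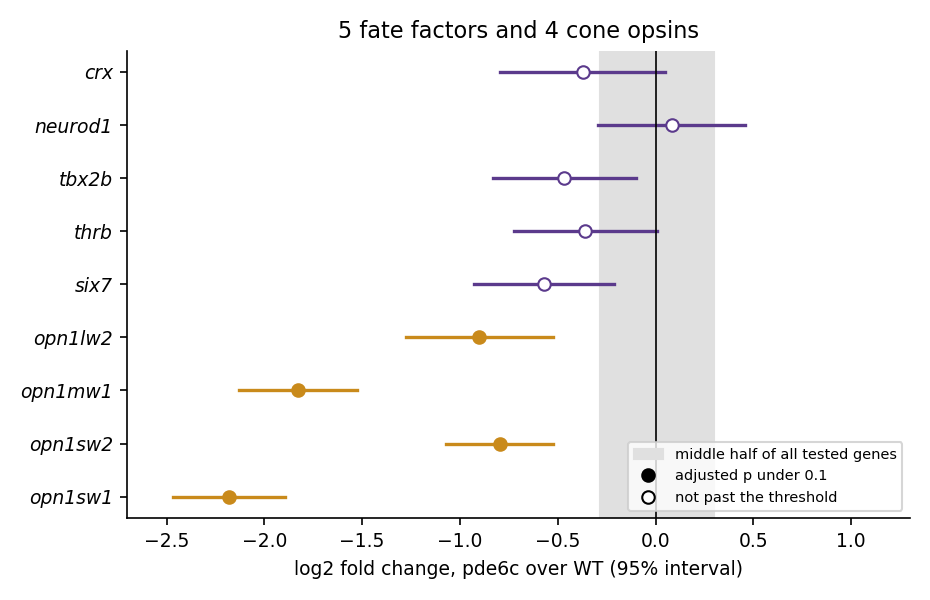
Log2 fold change of *pde6c* over WT with its 95% interval for the 5 factors (purple) and the 4 cone opsins that fell (orange); filled points passed an adjusted *P*-value of 0.1 in edgeR's test, and the grey band spans the log2 fold changes between the lower and upper quartile of all tested genes. The factors lie between -0.57 and 0.08, and the opsins between -2.18 and -0.80. The count of *opn1mw1* leaves out fragments that also lie on *opn1mw2*.

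A factor was then set beside an opsin that fell, in the same sample, as a description. Both were read in whole retina, so the ratios are not levels within cones. A higher ratio in *pde6c* follows where the opsin fell more than the factor, the pairs were chosen after the values had been seen, and opsins that rose were not paired, so no test was made. The ratio of *tbx2b* to *opn1sw1* was 3.28-fold higher in *pde6c* (1.72 on the log2 scale). That of *six7* to *opn1mw1* was 2.41-fold higher (1.27 on the log2 scale), with the limit on green opsin counts given above. It leaves out *opn1mw2*, whose FPKM was higher in *pde6c*, so it is not a ratio to all green opsin. The ratio of *thrb* to *opn1lw2* was 1.48-fold higher (0.57). The ratio of *six7* to *opn1sw2* was 1.17-fold higher (0.23), with overlap of the genotypes.

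Levels of all 5 factors were also set beside markers of cones, rods and bipolar cells, again in whole retina and not within a cell type. The mean log2 CPM of the 9 cone markers that could be tested was 6.78 ± 0.375 in *pde6c* and 7.84 ± 0.0983 in WT (SD, n = 3 each), a difference of -1.06. Of the 9 markers, 6 fell past the threshold in edgeR, beside 2.29% of all tested genes. The other 3 were *arr3a* (log2 fold change 0.51, edgeR adjusted *P* = 0.25), *gngt2a* (0.12) and *arr3b* (-0.07), so the mean depends on the markers listed. A higher ratio to this mean follows where it fell more than the factor, so it is no evidence of a rise of the factor. Relative to the mean log2 CPM of the cone markers, *neurod1* was 2.22-fold higher in *pde6c*, *thrb* 1.63-fold and *crx* 1.61-fold, each without overlap of the genotypes (exact permutation *P* = 0.1, adjusted *P* = 0.25 over 15 relations). With 3 samples against 3 this *P* cannot be under 0.1, so no relation could pass the threshold and the *P*-values here only describe. The log2 fold changes of *neurod1*, *thrb* and *crx* themselves were 0.08, -0.36 and -0.37. *tbx2b* was 1.52-fold and *six7* 1.4-fold higher by the same measure, with overlap (exact permutation *P* = 0.2 each). Of 13 rod markers listed, 8 were matched and 6 tested, and 3 of these fell past the threshold in edgeR (beside the same 2.29%). Relative to the 6 tested rod markers, the 5 factors were between 0.952-fold and 1.5-fold of WT and all overlapped. The direction turned for *crx*, *tbx2b*, *thrb* and *six7* when single samples were left out (PR1 for *crx*, PR1 or WR1 for *tbx2b*, WR1 for *thrb*, and PR2, PR3 or WR3 for *six7*), with log2 differences of -0.18 to 0.32 for *crx*, -0.17 to 0.18 for *tbx2b*, -0.15 to 0.35 for *thrb* and -0.35 to 0.08 for *six7*. Relative to 6 bipolar markers, *crx* (0.57-fold), *tbx2b* (0.536-fold) and *six7* (0.496-fold) were lower in *pde6c* without overlap (exact permutation *P* = 0.1, adjusted *P* = 0.25), and *thrb* (0.577-fold) and *neurod1* (0.783-fold) overlapped. The mean log2 CPM of the bipolar markers was itself 0.44 higher in *pde6c*, which lowers each ratio. One bipolar marker, *cabp5a*, rose by 2.29 on the log2 scale (edgeR adjusted *P* = 3.9e-05) and the other 5 did not pass in edgeR, though *cabp5b* did in DESeq2 (adjusted *P* = 0.0654). Without *cabp5a*, *tbx2b* was 0.687-fold and *six7* 0.636-fold of WT and still did not overlap (exact permutation *P* = 0.1), *crx* was 0.73-fold and overlapped (exact permutation *P* = 0.3), and *thrb* (0.74-fold) and *neurod1* (1-fold) overlapped. The part of cell number in these differences was not tested.

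**Figure D3:**
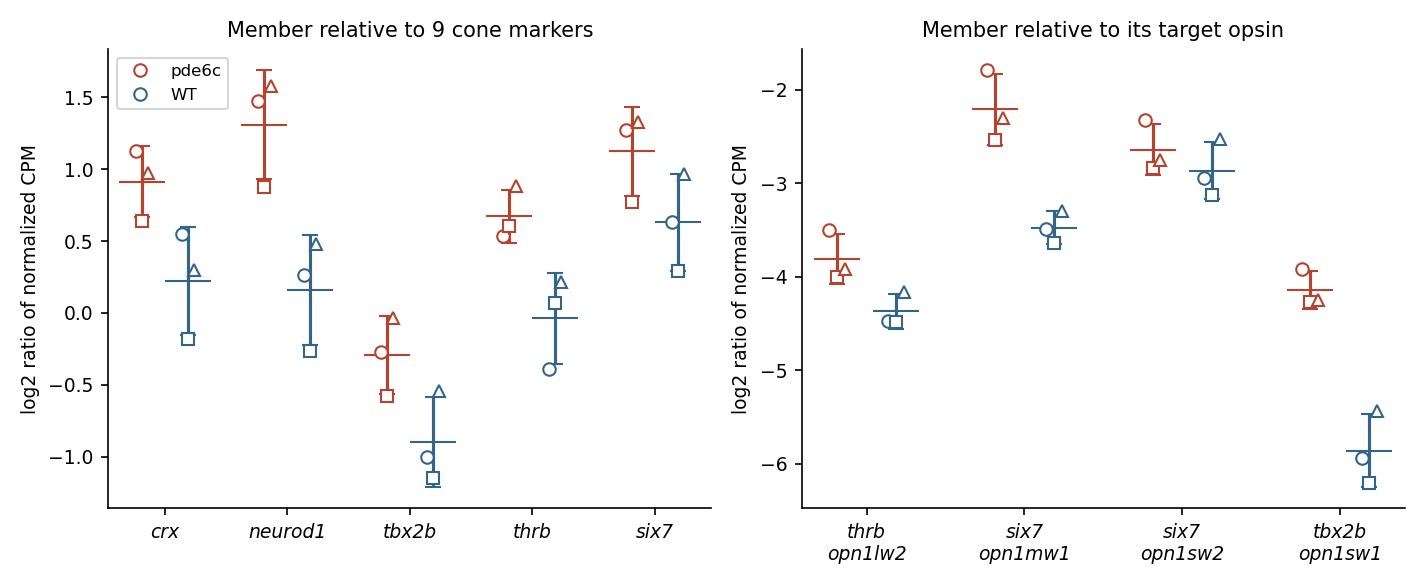
Log2 ratio of the CPM of each factor to the mean of 9 cone markers (left panel) and to an opsin that fell (right panel) in *pde6c* samples (red, left of each pair) and WT samples (blue); circles, squares and triangles are samples 1, 2 and 3, lines the means and bars the SD. All means are higher in *pde6c*. There the mean of the cone markers and each paired opsin fell, and the factor beside it fell less or, for *neurod1*, did not fall. The genotypes overlap for *tbx2b* and *six7* in the left panel and for *six7* with *opn1sw2* in the right panel. The *opn1mw1* count leaves out fragments that also lie on *opn1mw2*.

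The close relatives of the 5 factors were compared in the same way. Of 17 paralogs, 14 were matched, 12 were tested and none was called by edgeR, beside 3.69% of all genes, with a median log2 fold change of -0.22. The listed paralog *otx5* was not matched and so not measured here. Of the OTX paralogs matched, *otx2b*, which acts upstream of *crx* in mouse, was the most abundant, with 56.2 FPKM in *pde6c* and 84.7 FPKM in WT. Its log2 fold change of the counts was -0.28 (edgeR adjusted *P* = 0.775). *neurod4*, another basic helix-loop-helix gene, was nearly level at 142 FPKM in *pde6c* and 143 FPKM in WT (-0.03, edgeR adjusted *P* = 0.971). *six3b*, a homeodomain gene of the early eye field, had 76.0 FPKM in *pde6c* and 87.2 FPKM in WT (-0.20, edgeR adjusted *P* = 0.832).

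*tbx2a*, the duplicate of *tbx2b*, had 241, 190 and 211 CPM in the *pde6c* samples, against 321, 253 and 255 CPM in the WT samples, again without overlap. Its log2 fold change was -0.37 (SE 0.16, edgeR adjusted *P* = 0.337), next to -0.47 for *tbx2b*, and neither passed the threshold in edgeR. It was the only paralog with an unadjusted *P*-value under 0.05 in edgeR. DESeq2 and limma called none of the paralogs, and *tbx2a* was called when replicate number entered edgeR as a block. The alpha receptor gene *thrab* had 28.0 FPKM in *pde6c* and 34.4 FPKM in WT, below *thrb* in both genotypes (-0.24, edgeR adjusted *P* = 0.671). This order held in FPKM only. In counts over the whole span with its introns, *thrab* (240221 bases) averaged 958 CPM in *pde6c* and 1131 CPM in WT. *thrb* (143520 bases) averaged 175 CPM in *pde6c* and 225 CPM in WT.

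Among 24 other fate factors tested, 2 rose and 2 fell, beside 1.4% of all tested genes that rose and 2.29% that fell, and the median log2 fold change was -0.32. The CPM of 10 of the 24 did not overlap between genotypes, beside 16.9% of all genes. The list was chosen with earlier results of these data known, so these shares are no evidence of an excess among fate factors. *prdm1a*, the zebrafish gene for Blimp1, which in mouse favours photoreceptor over bipolar fate, had 97.1, 109 and 57.9 CPM in the *pde6c* samples, against 34.4, 22.3 and 25.6 CPM in the WT samples (log2 fold change 1.68, SE 0.25, edgeR adjusted *P* = 0.00077). *xbp1*, better known for driving genes of the unfolded protein response, had 95.5, 99.9 and 64.3 CPM in the *pde6c* samples, against 27.0, 24.8 and 23.6 CPM in the WT samples (1.79, SE 0.21, edgeR adjusted *P* = 8.9e-05). PR3 was the lowest *pde6c* sample for both genes and still lay above every WT sample. Both genes are also used by immune cells. Of 4 microglia markers matched, 2 were tested and none called, and their summed level was 6.31, 6.98 and 18.95 CPM in the *pde6c* samples, against 9.37, 2.81 and 3.95 CPM in the WT samples, highest in PR3. Nearly all of it was *csf1ra* and *p2ry12*, while *c1qa* and *c1qb* were at most 0.338 CPM in any sample. *csf1ra* overlapped between genotypes, with 9.32 CPM in WR1. *p2ry12* did not, as for 16.9% of all genes. It had 0.944, 1.83 and 3.01 CPM in the *pde6c* samples, against 0.0442, 0.225 and 0.674 CPM in the WT samples (log2 fold change 2.60, SE 0.99, edgeR adjusted *P* = 0.254). The part of microglia in the rise of *prdm1a* and *xbp1* was not tested.

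The strongest fall of the list was that of *lrrfip1a*, related to a human nucleic acid-binding repressor of transcription. It had 14.4, 15.3 and 12.3 CPM in the *pde6c* samples, against 84.8, 122 and 86.4 CPM in the WT samples (-2.80, SE 0.22, 14.3% of WT, edgeR adjusted *P* = 1.32e-06). *skor1a*, a corepressor gene of the SKI family, had 18.7, 16.9 and 10.4 CPM in the *pde6c* samples, against 34.9, 41.3 and 32.2 CPM in the WT samples (-1.24, SE 0.28, edgeR adjusted *P* = 0.0192). Neither gene had overlapping genotypes. A part of *xbp1*, *lrrfip1a* or *skor1a* in photoreceptor fate was not tested here.

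The other 20 did not pass the test, among them well known factors of rod and blue cone fate. Those named here were picked after their values were seen. *samd7*, a polycomb-linked repressor of photoreceptors in mouse, and *rx2*, a retinal homeobox gene, were at 51.6% and 52.2% of WT, short of the threshold in edgeR (adjusted *P* = 0.138 for *samd7* and 0.112 for *rx2*) and past it with DESeq2 (0.0494 for *samd7* and 0.0388 for *rx2*). *nr2e3*, a rod gene that represses cone genes, had 49.1, 27.8 and 50.7 CPM in the *pde6c* samples, against 83.9, 50.7 and 49.0 CPM in the WT samples (-0.53, SE 0.26, edgeR adjusted *P* = 0.462). *nrl*, the rod leucine zipper factor, was low, at 2.53 to 4.16 CPM in *pde6c* and 1.86 to 7.38 CPM in WT (-0.39, SE 0.60, edgeR adjusted *P* = 0.88). *foxq2*, needed for blue cones in zebrafish, had 2.06, 1.87 and 1.56 CPM in the *pde6c* samples, against 3.58, 4.45 and 2.36 CPM in the WT samples, without overlap but with a wide error (-0.92, SE 0.61, edgeR adjusted *P* = 0.627).

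Partners of the thyroid hormone receptor, namely its RXR dimer partners, corepressors and deiodinases, gave 9 tested genes of 12 listed. The listed *rxrga*, *dio3a* and *dio3b* were not matched and so not measured here. There was no call by edgeR, beside 3.69% of all genes, with a median log2 fold change of 0.01. The CPM of 1 of the 9, *dio2*, did not overlap between genotypes, a share no higher than the 16.9% of all genes. *dio2*, the deiodinase that makes active hormone, had 12.2, 11 and 14.9 CPM in the *pde6c* samples, against 6.72, 7.88 and 3.42 CPM in the WT samples (1.08, SE 0.40, edgeR adjusted *P* = 0.233). It was the only one of the 9 with an unadjusted *P*-value under 0.05 in edgeR. DESeq2 called it (adjusted *P* = 0.0873) and limma called none. Over the paralogs, fate factors and hormone partners together, 4 of 45 tested genes passed in edgeR (8.89%), beside 3.69% of all tested genes and 8.2% of the 2268 genes at least as abundant as the lowest of the 5, and the median log2 fold change was -0.22. All of these lists were chosen with earlier results of these data known.

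**Figure D4:**
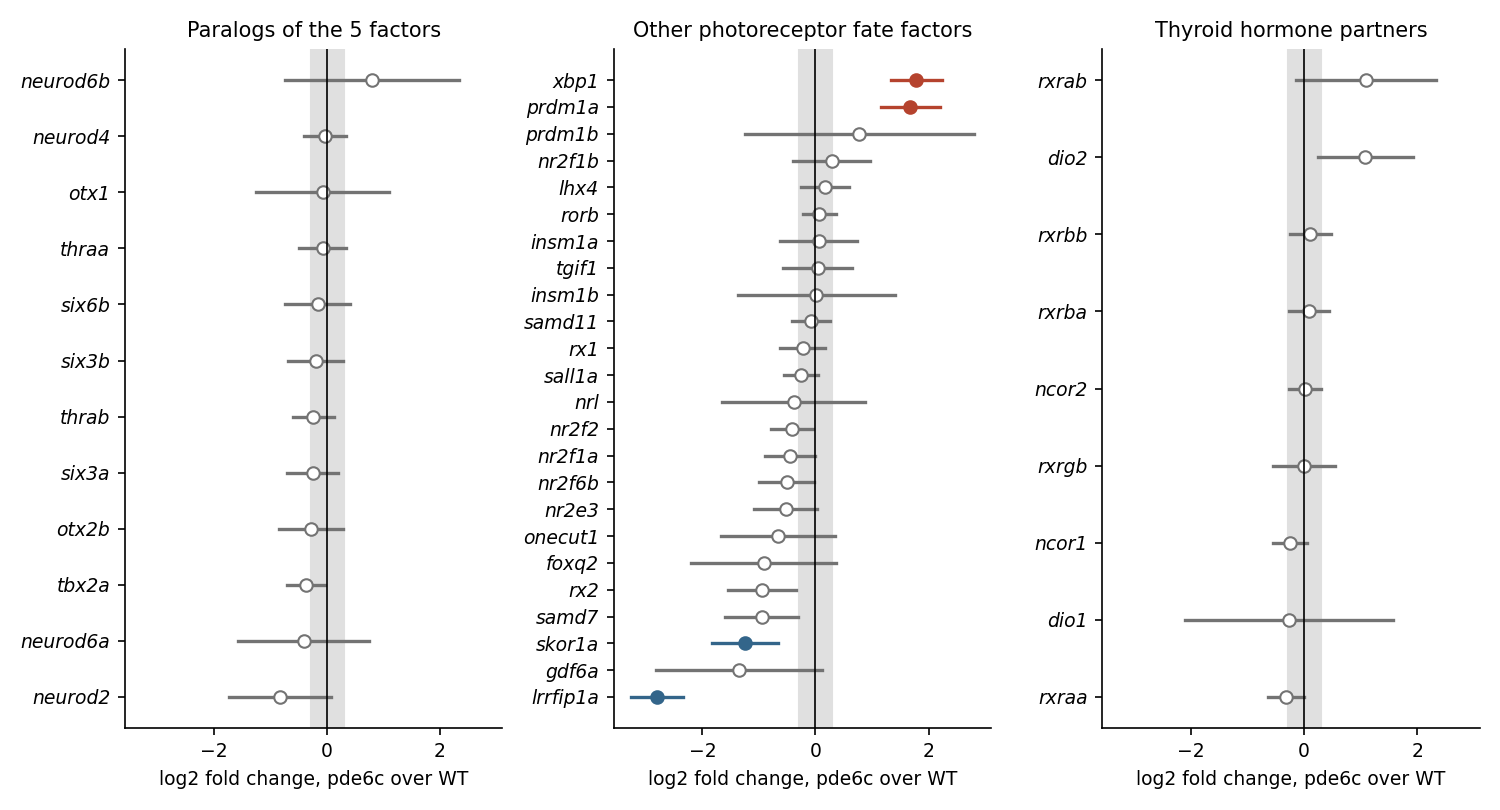
Log2 fold change of *pde6c* over WT with its 95% interval for 12 paralogs, 24 other fate factors and 9 thyroid hormone partners; filled red and blue points passed an adjusted *P*-value of 0.1 in edgeR's test (higher and lower), and the grey band spans the log2 fold changes between the lower and upper quartile of all tested genes. The 4 filled genes are all in the middle panel: *xbp1*, *prdm1a*, *skor1a* and *lrrfip1a*.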

How the data were processed

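Raw counts per gene were deposited for 3 *pde6c* and 3 WT retina samples. The authors aligned the reads with STAR 2.5.3a and counted fragments with featureCounts 1.5.2 over whole Ensembl gene spans (GRCz10), introns included, without strand, leaving out fragments on several places or genes. The authors also deposited FPKM from Cufflinks 2.2.1, whose options are not given in the sources used here.

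Counts were tested with edgeR 4.0.16 in R 4.3.3 (filterByExpr with a minimum count of 10, TMM, quasi-likelihood test of genotype, Benjamini-Hochberg adjustment over 17242 genes, threshold 0.1). SEs are those implied by the test. Total counts lay between 18757605 and 22510222 per sample. FPKM values on the log2(FPKM + 1) scale were tested with limma 3.58.1, keeping genes that reached 1 FPKM in 3 or more samples. This is a scale that understates changes of low genes. Levels relative to markers used log2(CPM + 0.5), and few values were compared with exact permutation tests. Alternatives were DESeq2 1.42.0, its size factors, other filters, the replicate number as a block, FPKM, other pseudocounts, leaving out each replicate and, added after the data were seen, leaving out both number 1 samples.

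The columns were matched to samples by their names. The study's summary of genes with nonzero FPKM gives the sample names the other way round. The direction of each difference here follows the column names. Count and FPKM columns of 1 name belonged together in all 6 samples (r of 0.576 to 0.619 after centring each gene), and *pde6c* FPKM was lower in the columns named *pde6c*. Symbols were found for 22595 of 25190 identifiers in a table of names, and duplicated genes with 1 symbol were told apart by chromosome in RefSeq. Replicates differed by far more than counting noise (chi-square per degree of freedom of at least 33). The 5 factors and all lists were chosen with earlier results of these data known. Named were the 5 factors, all listed factors past the threshold, the most abundant paralog of each, the opsins, the 2 closest patterns of each, and the exceptions stated in the text. No sequence was used here. Of the listed genes, 1 was left out of every list and count and is not reported here.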

Additional observations from a re-analysis of the deposited data

How the results depend on the processing

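The log2 fold changes of *crx*, *tbx2b* and *thrb* kept their direction and stayed short of the threshold in all fits tried. Over fits that left out 1 sample they ran from -0.55 to -0.16 for *crx*, -0.56 to -0.33 for *tbx2b* and -0.49 to -0.25 for *thrb*. *neurod1* ran from -0.0745 to 0.20 in these fits, with a reversed sign without PR1 (-0.067) and without WR2 (-0.0745), and was -0.0095 without the number 1 samples of both genotypes, a fit chosen after seeing the data. *six7* passed the threshold with DESeq2 (-0.57, adjusted *P* = 0.0517), with at least 10 counts in every sample (-0.56, adjusted *P* = 0.0718) and without both number 1 samples (-0.70, adjusted *P* = 0.0592). Leaving out 1 sample gave -0.71 to -0.44, past the threshold without PR1 (adjusted *P* = 0.0597) and without WR2 (adjusted *P* = 0.0669). The range of its adjusted *P* over these fits was 0.0597 to 0.418, and limma on FPKM gave 0.319. The causes were not tested. The genes past the threshold, 636 in all, were 1081 with DESeq2, 205 with limma on FPKM and 414 to 537 with 1 sample left out, the lowest without PR3. Of the 5 factors, 1 passed with DESeq2, beside 1081 of all 18380 genes tested. With at least 10 counts 1 passed, beside 727 of 14917 genes, and without the number 1 samples 1 passed, beside 448 of 17167. With a sample left out 0 to 1 passed, beside 414 to 537 of 17656 to 17789 genes. Of the other listed factors, 4 passed in the test as reported, beside 636 of 17242 genes. With DESeq2 7 passed, and 4 to 5 with a sample left out, beside the same numbers of all genes as above. *prdm1a*, *xbp1* and *lrrfip1a* passed in 14 of 14 fits and *skor1a* in 13. Relative to bipolar markers without *cabp5a*, a choice made after seeing the data, the log2 differences were 0.0051 for *neurod1*, -0.54 for *tbx2b* and -0.65 for *six7*, against -0.35, -0.90 and -1.01 with it. Relative to cone markers, leaving out 1 sample gave log2 differences of 0.49 to 0.85 for *crx*, 0.94 to 1.37 for *neurod1*, 0.47 to 0.78 for *tbx2b*, 0.53 to 0.83 for *thrb* and 0.32 to 0.67 for *six7*. The deviations of same-numbered samples correlated at 0.116, 0.0494 and 0.0437. Each sample was from other larvae, and the numbers were not taken as pairs in the test as reported. Whether same-numbered samples shared a processing step was not tested. With the replicate number as a block, *six7* had -0.57 and passed (adjusted *P* = 0.0245), as 1 of the 5 factors, 7 of the other listed factors and 984 genes did, beside 5.71% of all genes, and each sample correlated best with its own number. Each of the 5 factors had at least 1633 counts in every sample, so their counting error was small beside the spread between samples.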
